A study of Triticum aestivum with 24 samples.

Results

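Flag leaves were compared with stems in the standard height line of spring wheat, labelled Fortuna, which carries the wild-type allele *Rht-B1a*. The 6 tissue samples of this line were taken by their labels from 12 in the series, and they comprised 3 flag leaves (samples 10, 13 and 16) and 3 stems (samples 1, 4 and 7). All were collected at 14 days past anthesis (DPA) from field-grown plants, the stems from the region between the first and second internode, and no treatment separated the groups. The other 6 tissue samples carried the semi-dwarfing allele and entered only as an alternative. The values cover 26 selected genes, of which 25 were compared between the tissues, because actin was used by the authors to scale every sample. Each value is an RPKM, the reads per kilobase of sequence scaled for the size of the library, so levels of different genes are given per length. Read counts and depth are unknown, so the only error known for a value is its spread among 3 samples per tissue.

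The flag leaf is the uppermost leaf of the wheat stem and a main source of carbon for the filling grain. Its mesophyll fixes CO2 with RuBisCO and reassimilates ammonium in the chloroplast, and sucrose leaves it through the phloem. The stem carries that sucrose and stores part of it, and it also holds green cells of its own. Growth of the stem is restrained by DELLA proteins, which gibberellin removes through its receptor.

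After scaling, actin stood at 1432.5 RPKM in all 6 samples, and its own difference between leaf and stem could not be seen on this scale. Leaf 10 stood apart. It was the highest of the 3 leaves for 23 of 25 genes and lay at a median of 1.57 times the mean of the other leaves, against 0.86 to 1.03 times for any stem. The geometric mean of 22 genes, with actin and without the RuBisCO sequences, was 2578, 1787 and 1619 RPKM in leaves 10, 13 and 16, against 1382, 1174 and 1287 RPKM in stems 1, 4 and 7. Relative to that mean, actin was 0.61 lower in leaves than in stems on the log2 scale (standard error 0.23), so that actin-scaled differences lie above those relative to the other genes by this amount. A lower actin in leaves and a higher level of the other genes cannot be told apart. For this reason ratios of 2 genes within a sample, in which the scaling cancels, are given beside the scaled levels. Without leaf 10 the same 18 genes passed the test described next.

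Most genes differed between the tissues. Of 25 genes, 12 were higher in leaves (48% of genes tested), 6 were lower (24%) and 7 did not pass, at an adjusted p under 0.05 from limma on log2(RPKM + 1). The median difference, leaf minus stem, was 0.59 on the log2 scale, and 19 of 25 estimates lay above 0. Scaled to the median gene in place of actin, 10 were higher and 8 lower, with a median of -0.16, and with the geometric mean of 22 genes 11 were higher and 7 lower, with a median of -0.017. For 20 of 25 genes (80%) no leaf overlapped any stem, which is the lowest result an exact permutation test of 3 against 3 can give (two-sided p = 0.1). The adjusted p-values are smaller because limma pools the spread of the genes. They measure only the spread between these samples, whose genes share 1 scaling.

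**Figure D1:**
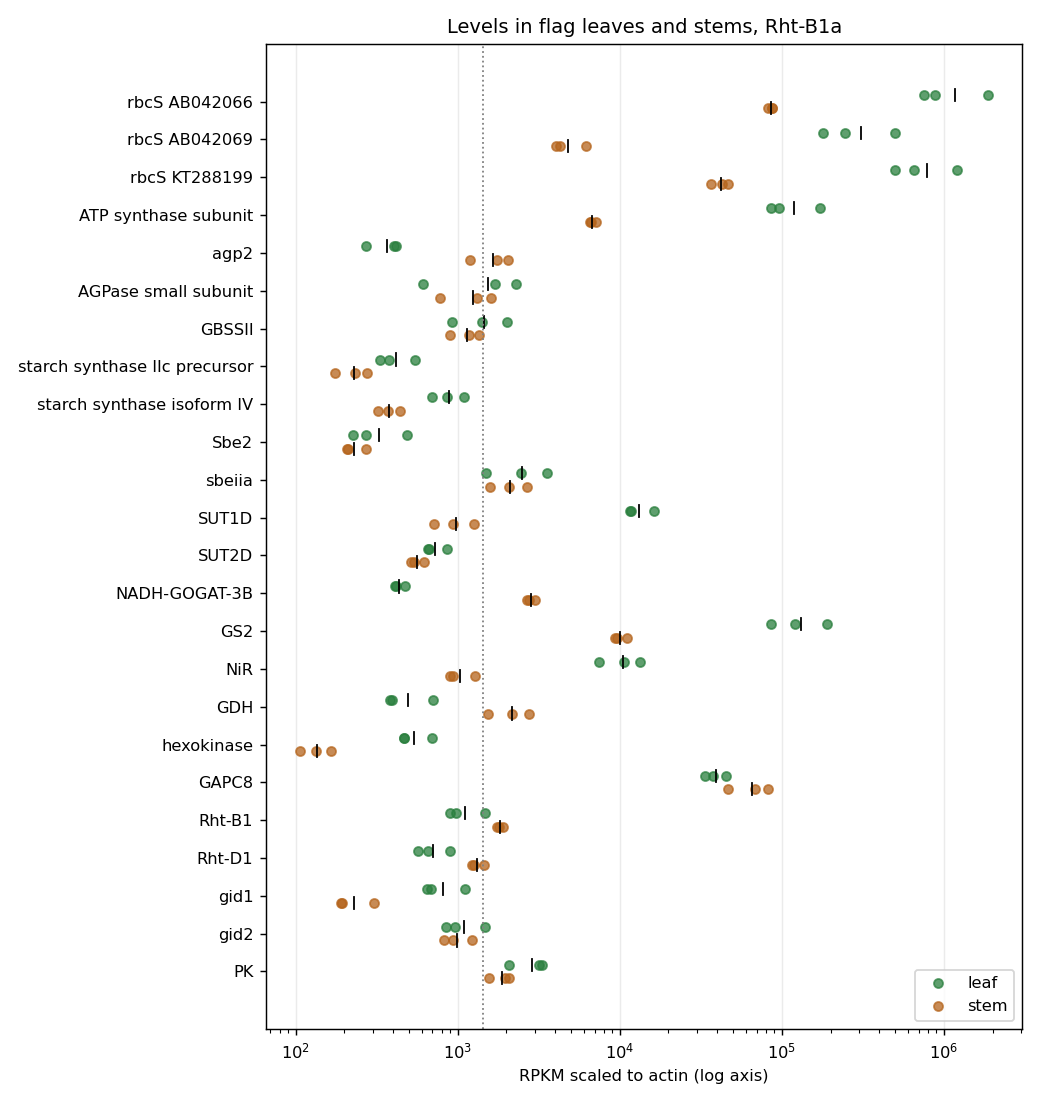
RPKM scaled to actin (log axis) of 24 genes in each of 3 leaves (green) and 3 stems (brown), with a vertical mark at each mean and a dotted line at the level of actin. The RuBisCO small subunit sequences, the ATP synthase subunit, SUT1D, GS2 and NiR lie far to the right in leaves, while agp2, NADH-GOGAT-3B and GDH lie to the right in stems, and rbcL, listed at up to 1.69 RPKM, is not drawn.

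The 3 most abundant genes of leaves were sequences of rbcS, and the 3 largest differences were those of rbcS AB042069, rbcS KT288199 and an ATP synthase subunit. All 5 of the photosynthesis list (3 sequences of rbcS, which encodes the small subunit of RuBisCO, rbcL, which encodes its large subunit, and the subunit of ATP synthase, the enzyme that makes ATP) passed as higher in leaves, with a median difference of 4.05 against 0.59 over all genes. The call of rbcL was lost with a pseudocount of 100. It is not read as a difference in expression, as described after the other members, which leaves 4 of 5. Over all 25 genes, rbcL counted, 48% passed as higher in leaves. The rbcS sequence AB042066 was the most abundant of the 26 genes in every sample of both tissues. It had 1873302, 876126 and 750613 RPKM in leaves 10, 13 and 16, against 82651, 87297 and 87315 RPKM in stems 1, 4 and 7. Even the lowest leaf was far above the highest stem, while leaf 10 was well above the other leaves and the stems were close together. Leaf minus stem gave 3.64 in log2 units, with a standard error of 0.33 and an adjusted p = 1.08e-11, and the leaf mean was 13.6 times the stem mean. The high rbcS of all 3 leaves is that of green tissue, and no gene among the 26 is known to define stem tissue.

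The other rbcS sequences differed by unequal amounts. AB042069 had 501489, 246555 and 178549 RPKM in leaves, against 4030, 6168 and 4276 RPKM in stems. No leaf came near a stem, and its difference of 5.89 (standard error 0.35, adjusted p = 3.35e-16) was the largest of the 25 genes. KT288199 had 1208597, 653004 and 496381 RPKM in leaves, against 42838, 36454 and 46465 RPKM in stems, a difference of 4.13 (standard error 0.33, adjusted p = 6.78e-13). Related sequences can share reads, so the division of reads among the 3 is uncertain. Within a sample AB042066 was 3.74, 3.55 and 4.20 times AB042069 in leaves, against 20.5, 14.2 and 20.4 times in stems. AB042069 thus stood much closer to AB042066 in every leaf than in any stem, a difference of -2.24 in the log2 ratio (standard error 0.31, adjusted p = 6.4e-09 over 325 pairs of genes). The ratio of AB042066 to KT288199 was 1.55, 1.34 and 1.51 in leaves, against 1.93, 2.39 and 1.88 in stems, and did not pass (difference -0.49, adjusted p = 0.143), although no leaf overlapped a stem.

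The ATP synthase subunit had 172597, 96229 and 86327 RPKM in leaves, against 7146, 6563 and 6674 RPKM in stems. It followed the pattern of the rbcS sequences, with stems close together and leaf 10 highest, and its difference was 4.05 (standard error 0.32, adjusted p = 6.78e-13). KT288199 was 7.00, 6.79 and 5.75 times the ATP synthase subunit in leaves, against 5.99, 5.55 and 6.96 times in stems. These ranges overlapped, and the difference of 0.079 in the log2 ratio (95% interval -0.54 to 0.70, adjusted p = 0.823) did not pass.

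The gene rbcL, which lies in the chloroplast genome, was listed at 1.69, 0.97 and 1.36 RPKM in leaves, against 0.13, 0.12 and 0.14 RPKM in stems. It was the lowest of 26 genes in every sample, near or below the pseudocount of 1. Libraries of messenger RNA can miss messages without a poly(A) tail, which was not tested here. The level of rbcL is therefore not compared with those of nuclear genes. The difference of 1.04 (standard error 0.30, adjusted p = 0.00318) passed but was 0.017 with a pseudocount of 100 (adjusted p = 0.832) and 3.34 with none. As a share of the summed RPKM of the 26 genes, rbcL was at 4.18e-05, 4.69e-05 and 8.13e-05% in leaves, against 5.45e-05, 5.45e-05 and 5.45e-05% in stems. On that scale the tissues overlapped, and over the 12 tissue samples of the series 11 lay between 4.18e-05 and 5.53e-05%, with leaf 16 above them. Shares of SUT1D, GS2 and NiR overlapped between the tissues too, in a sum made up mostly of rbcS. Overlap on this scale thus does not by itself set rbcL apart from genes higher in leaves. Because its level was so low and its difference moved with the pseudocount, its passing is not read as a difference in expression. Whether these values are a floor of the method was not tested.

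Sucrose transport showed 1 large difference and 1 small one. Both genes encode proton-coupled sucrose carriers, and SUT1-type carriers load sucrose into the phloem. Of the 2 genes 1 was higher in leaves and the other did not pass, with a median of 2.07. The share higher in leaves over all 25 genes was 48%. SUT1D had 16191, 11798 and 11596 RPKM in leaves, against 943, 1265 and 714 RPKM in stems. Every leaf was well above every stem, and the difference was 3.78 (standard error 0.32, adjusted p = 1.7e-12), close to that of rbcS AB042066. SUT2D had 859, 655 and 662 RPKM in leaves, against 623, 537 and 518 RPKM in stems. The groups did not overlap, but the difference of 0.37 (95% interval -0.26 to 0.99, adjusted p = 0.285) did not pass and was below 0 with both other scalings. SUT1D was 18.9, 18.02 and 17.5 times SUT2D in leaves, against 1.51, 2.35 and 1.38 times in stems. This ratio was steady within leaves, and the tissues differed by 3.41 in its log2 value (adjusted p = 4.18e-14), a 10.7-fold change in balance between the carriers.

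**Figure D2:**
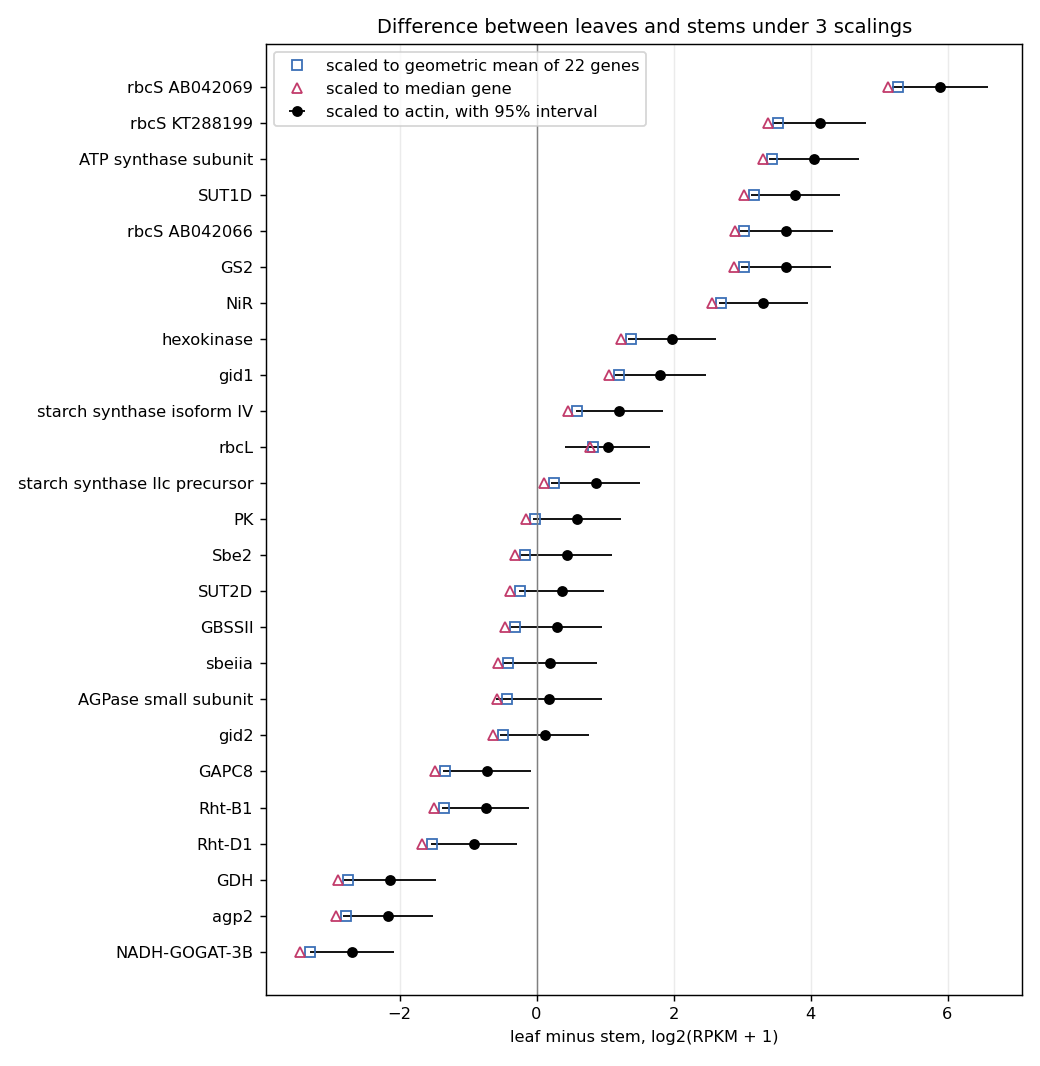
Difference between leaves and stems, leaf minus stem on log2(RPKM + 1), for 25 genes ordered by size. Black points are scaled to actin with the 95% interval from limma, blue squares to the geometric mean of 22 genes and red triangles to the median gene. Both other scalings shift the genes to the left, by which 7 of the small positive differences move below 0, while the genes at either end keep their side.

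Nitrogen assimilation split into genes higher in leaves and genes higher in stems. All 4 genes passed, 2 in each direction, with a median difference of 0.58 that falls between the 2 pairs and near no gene of the list. Over all 25 genes 48% passed as higher in leaves and 24% as lower. With 4 genes, the count is not read as particular to this list. The pair higher in leaves acts early in the pathway: NiR encodes nitrite reductase, which makes ammonium in plastids, and GS2 encodes the plastid glutamine synthetase, which fixes ammonium into glutamine. GS2 had 189839, 120558 and 85625 RPKM in leaves, against 9391, 11114 and 9675 RPKM in stems, a difference of 3.64 (standard error 0.32, adjusted p = 6.28e-12). NiR had 13349, 7463 and 10602 RPKM in leaves, against 901, 1288 and 932 RPKM in stems, a difference of 3.31 (standard error 0.32, adjusted p = 3.17e-11). For both genes all leaves lay above all stems, and for NiR leaf 13, not leaf 16, was the lowest leaf. Their ratio did not pass (GS2 to NiR, difference 0.33, 95% interval -0.31 to 0.97, adjusted p = 0.346).

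The genes lower in leaves act on glutamate. NADH-GOGAT-3B is named for glutamate synthase, which makes glutamate from glutamine, by its name with NADH. In rice the NADH form is known from vascular tissue of growing organs, but the study elsewhere describes this sequence as ferredoxin dependent, so which form it is remains uncertain. It had 409, 476 and 420 RPKM in leaves, against 2696, 3020 and 2739 RPKM in stems. Samples of each tissue agreed closely, and leaf 10 was here the lowest leaf and not the highest. The difference of -2.69 (standard error 0.30, adjusted p = 1.12e-09) was the largest of the 6 genes lower in leaves, and the stem mean was 6.48 times the leaf mean. GDH encodes glutamate dehydrogenase, a mitochondrial enzyme that can release ammonium from glutamate. It had 703, 391 and 383 RPKM in leaves, against 2154, 1541 and 2757 RPKM in stems. The lowest stem was above the highest leaf, with a difference of -2.14 (standard error 0.33, adjusted p = 6.18e-07).

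Ratios within samples set the branches of the nitrogen list furthest apart. NADH-GOGAT-3B was 0.0022, 0.0039 and 0.0049 times GS2 in leaves, against 0.287, 0.272 and 0.283 times in stems. Stems were close together, all leaves were lower, and the difference of -6.34 (standard error 0.32, adjusted p = 1.76e-23) means an 80.9-fold higher ratio in stems. GS2 was 270.1, 308 and 223 times GDH in leaves, against 4.36, 7.21 and 3.51 times in stems (difference 5.79, adjusted p = 4.03e-22). Between NADH-GOGAT-3B and GDH, both lower in leaves, the ratio overlapped between the tissues and did not pass (difference -0.55, 95% interval -1.22 to 0.12, adjusted p = 0.124). The rbcS sequence AB042066 was 9.87, 7.27 and 8.77 times GS2 in leaves, against 8.80, 7.85 and 9.02 times in stems. Leaves lay on both sides of the stems, and the difference of 0.0037 (95% interval -0.62 to 0.63, adjusted p = 0.991) did not pass, although both genes had 13.1 to 13.6 times more RPKM in leaves.

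**Figure D3:**
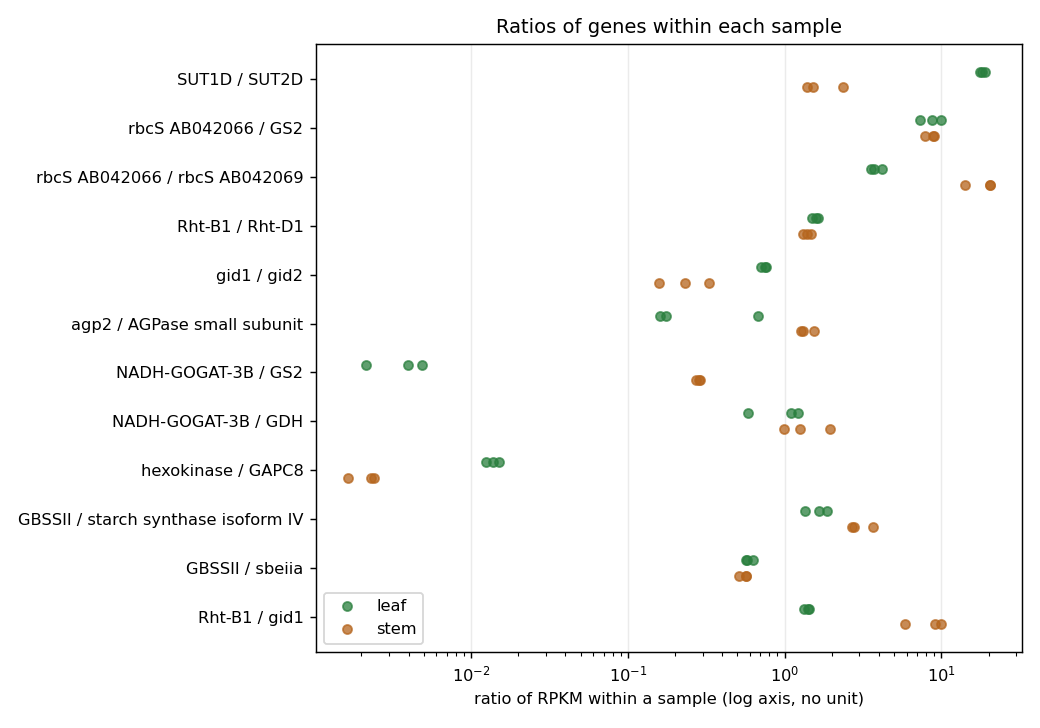
Ratio of the RPKM of 2 genes within a sample (log axis) for 12 pairs, with 3 leaves in green and 3 stems in brown. The scaling to actin cancels in these ratios. SUT1D to SUT2D, NADH-GOGAT-3B to GS2 and Rht-B1 to gid1 separate the tissues widely, while rbcS AB042066 to GS2 and GBSSII to sbeiia overlap.

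Genes of ADP-glucose pyrophosphorylase, which makes the glucose donor for starch, did not move together. Of the 2 genes 1 was lower in leaves and 0 were higher, with a median difference of -0.995. Among all 25 genes 24% passed as lower and 48% as higher. The gene agp2 had 405, 273 and 419 RPKM in leaves, against 2040, 1193 and 1738 RPKM in stems. All stems were above all leaves, the difference was -2.17 (standard error 0.32, adjusted p = 3.18e-07), and the stem mean was 4.53 times the leaf mean. The small subunit gene had 2299, 1693 and 615 RPKM in leaves, against 1602, 780 and 1325 RPKM in stems. Leaf 16 was the lowest of all 6 samples and leaf 10 the highest, and the difference of 0.18 (95% interval -0.60 to 0.95, adjusted p = 0.670) did not pass. It passed as higher without leaf 16 (0.74, adjusted p = 0.0392) and was below 0 without leaf 10 (-0.21) or stem 4 (-0.12), so its direction rests on single samples. Relative to the small subunit gene, agp2 stood at 0.176, 0.161 and 0.681 in leaves, against 1.27, 1.53 and 1.31 in stems. The small subunit gene was the more abundant in every leaf and agp2 in every stem, with a difference of -2.35 in the log2 ratio (standard error 0.36, adjusted p = 7.52e-08). Leaf 16 lay nearest to the stems, and without it the difference was -3.02 (adjusted p = 2.95e-11).

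Among starch synthases and branching enzymes the differences ran from 0.19 to 1.21. Of 5 genes 2 were higher in leaves, 0 were lower and 3 did not pass, and the median difference was 0.44, against 0.59 over all genes. The count is near the shares over all 25 genes, 48% higher and 24% lower, and is not read as particular to this list. Starch synthase isoform IV, known in Arabidopsis for the start of starch granules, had 1092, 855 and 694 RPKM in leaves, against 370, 324 and 438 RPKM in stems. The groups did not overlap, and the difference of 1.21 (standard error 0.31, adjusted p = 0.000972) passed with scaling to actin and to the geometric mean, and missed with the median gene (0.45, adjusted p = 0.0543). The starch synthase IIc precursor, an enzyme that lengthens the chains of amylopectin, had 545, 380 and 331 RPKM in leaves, against 234, 174 and 275 RPKM in stems. Its difference of 0.87 (adjusted p = 0.0162) was lost with both other scalings (0.26 and 0.11) and without stem 4 (0.69, adjusted p = 0.104).

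The remaining starch genes overlapped between the tissues. GBSSII, the granule-bound synthase known from wheat tissues outside the endosperm, had 929 to 2024 RPKM in leaves and 902 to 1362 RPKM in stems (difference 0.29, adjusted p = 0.426). The branching enzyme genes had 225 to 490 RPKM in leaves and 208 to 271 RPKM in stems for Sbe2 (difference 0.44, adjusted p = 0.230), and 1488 to 3575 RPKM in leaves and 1581 to 2679 RPKM in stems for sbeiia (difference 0.19, adjusted p = 0.623). These 3 differences were all below 0 with both other scalings, where sbeiia passed as lower with the median gene (-0.56, adjusted p = 0.0257). GBSSII was 0.566, 0.575 and 0.624 times sbeiia in leaves, against 0.508, 0.570 and 0.566 times in stems, a ratio that did not pass (difference 0.10, 95% interval -0.52 to 0.72, adjusted p = 0.763). GBSSII to starch synthase isoform IV was 1.85, 1.66 and 1.34 in leaves, against 3.68, 2.79 and 2.68 in stems. The granule-bound gene was thus less dominant in every leaf, by -0.91 in the log2 ratio (adjusted p = 0.00701, and 0.0567 without stem 1).

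Sugar breakdown was represented by the gene for hexokinase, which phosphorylates glucose at the entry to glycolysis, and GAPC8, a cytosolic glyceraldehyde-3-phosphate dehydrogenase gene further along. The 2 passed in opposite directions, with a median of 0.63, where 48% of all 25 genes passed as higher in leaves and 24% as lower. Hexokinase had 690, 464 and 469 RPKM in leaves, against 166, 107 and 134 RPKM in stems. All leaves were above all stems, and the difference was 1.98 (standard error 0.31, adjusted p = 1.05e-06). GAPC8 had 45468, 33798 and 37893 RPKM in leaves, against 68767, 46503 and 81676 RPKM in stems. The lowest stem barely exceeded the highest leaf, and the difference of -0.72 (standard error 0.32, adjusted p = 0.0404) was lost without leaf 13, stem 1 or stem 7 (adjusted p up to 0.245) and with a mean trend in the prior (adjusted p = 0.109). It passed with both other scalings, which shift all genes down. Over all alternatives the difference of GAPC8 ran from -1.48 to -0.54. Hexokinase was 0.0152, 0.0137 and 0.0124 times GAPC8 in leaves, against 0.0024, 0.0023 and 0.0016 times in stems, a difference of 2.71 in the log2 ratio (adjusted p = 3.72e-11).

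GAPC8 also showed how far the tissues differ in their most abundant messages. AB042066 was 41.2, 25.9 and 19.8 times GAPC8 in leaves, against 1.20, 1.88 and 1.07 times in stems. AB042066 was ahead in all 6 samples, and by more in every leaf than in any stem, a difference of 4.37 in the log2 ratio (standard error 0.33, adjusted p = 3.13e-17). SUT1D was also higher against GAPC8 in leaves (difference 4.50, adjusted p = 2.79e-17), whereas GDH and agp2 were lower against it in leaves (differences -1.42 and -1.45, adjusted p = 5.02e-05 and 3.98e-05).

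Genes of gibberellin signalling were split between receptor and repressors. Of 4 genes 1 was higher in leaves, 2 were lower and 1 did not pass, with a median difference of -0.31. Over all 25 genes 48% passed as higher and 24% as lower, with a median of 0.59. A count over 4 genes cannot be told from these shares, so the split rests on the single genes. The homeologs Rht-B1 and Rht-D1 encode DELLA proteins, which repress growth. Rht-B1 had 1473, 972 and 904 RPKM in leaves, against 1804, 1917 and 1748 RPKM in stems. All stems lay above all leaves, and the difference of -0.74 (standard error 0.31, adjusted p = 0.0344) was lost without leaf 13, leaf 16 or any 1 stem (adjusted p up to 0.103). It passed with both other scalings, which shift all genes down. Over all alternatives the difference of Rht-B1 ran from -1.49 to -0.61. Rht-D1 had 900, 655 and 568 RPKM in leaves, against 1220, 1459 and 1256 RPKM in stems, with a difference of -0.91 (standard error 0.31, adjusted p = 0.0101) that passed without any 1 sample. As related copies they may share reads. Rht-B1 was 1.64, 1.48 and 1.59 times Rht-D1 in leaves, against 1.48, 1.31 and 1.39 times in stems. Rht-B1 was the higher copy in all 6 samples, and the ratio did not pass (difference 0.17, 95% interval -0.45 to 0.79, adjusted p = 0.620).

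The gene gid1 encodes the gibberellin receptor, and gid2 is known from rice as the F-box protein that marks DELLA proteins for breakdown. The receptor gene had 1116, 685 and 645 RPKM in leaves, against 306, 193 and 192 RPKM in stems. The lowest leaf was above the highest stem, and the difference was 1.81 (standard error 0.32, adjusted p = 7.45e-06). For gid2 the values were 1479, 966 and 847 RPKM in leaves, against 931, 1229 and 827 RPKM in stems. These overlapped (difference 0.12, adjusted p = 0.713), and gid2 passed as lower under both other scalings (-0.49, adjusted p = 0.0421 for the geometric mean, and -0.63, adjusted p = 0.0232 for the median gene). Rht-B1 was 1.32, 1.42 and 1.40 times gid1 in leaves, against 5.89, 9.91 and 9.12 times in stems. The excess of Rht-B1 over gid1 was thus larger in all stems, by 5.87-fold (difference -2.55, standard error 0.31, adjusted p = 2.59e-10). Rht-D1 was 0.81, 0.96 and 0.88 times gid1 in leaves, against 3.98, 7.54 and 6.56 times in stems. It was thus below gid1 in every leaf and above it in every stem. The ratio of gid1 to gid2 was 0.755, 0.709 and 0.761 in leaves, against 0.329, 0.157 and 0.232 in stems (difference 1.69, adjusted p = 4.39e-06). PK, a gene in no list whose abbreviation is not spelled out, had 3329, 2081 and 3178 RPKM in leaves, against 2077, 1558 and 1974 RPKM in stems and did not pass (difference 0.59, adjusted p = 0.0883).

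Over all 325 pairs of genes, actin included, the log2 ratio differed between leaves and stems in 265 (81.5%). Pairs share genes and are not independent, and limma pools their spread. The standard error was 0.31 for GBSSII to sbeiia and 0.36 for agp2 to the small subunit gene. Their leaf ratios had standard deviations of 5.3% and 87.1% of the mean. Errors and p-values of a ratio thus reflect its own spread only in part. AB042069 was higher in leaves against all 25 other genes, and KT288199 and the ATP synthase subunit against 20 each. SUT1D, AB042066, GS2 and NiR were higher against 18 each. So was rbcL, from values of at most 1.69 RPKM, which is again not read as a difference in expression. Its pairs that passed are among the 265. At the other end NADH-GOGAT-3B, agp2 and GDH were lower against 23 of 25 genes each, the exceptions being one another. Rht-B1, Rht-D1 and GAPC8 were each lower against 20. Hexokinase was higher against 16 and lower against 8, and gid1 was higher against 15 and lower against 8.

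**Figure D4:**
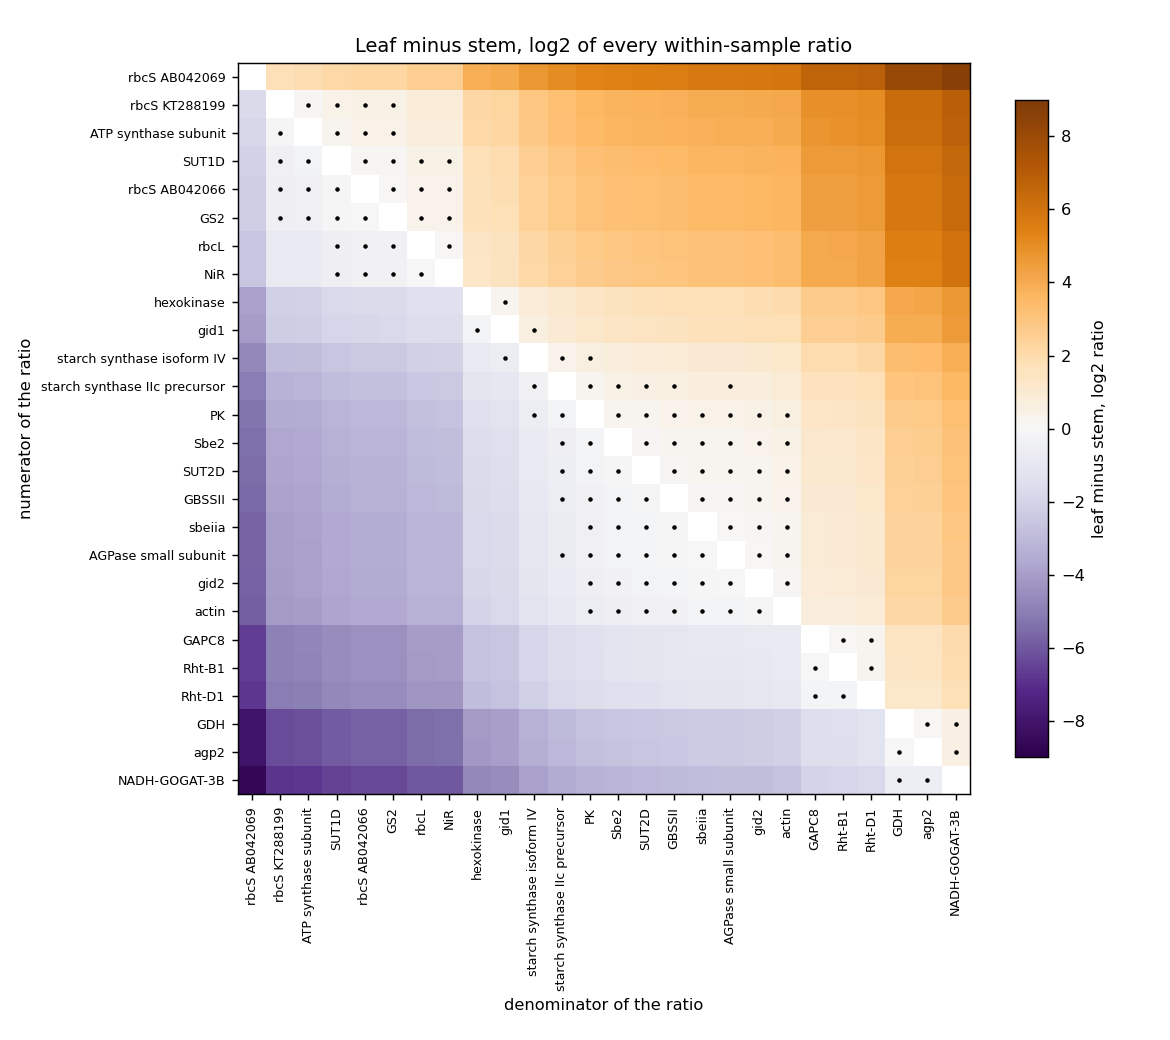
Difference between leaves and stems, leaf minus stem, in the log2 ratio of every pair of 26 genes, the row being the numerator and the column the denominator. Orange marks a ratio higher in leaves and purple a lower one, and a dot marks a pair that did not pass. Dots gather in blocks along the diagonal, the first joining rbcS AB042066 with SUT1D, GS2 and NiR. The next joins actin with GBSSII, Sbe2, sbeiia, the ADP-glucose pyrophosphorylase small subunit gene, SUT2D, gid2 and PK. Then come GAPC8 with Rht-B1 and Rht-D1, and last GDH, agp2 and NADH-GOGAT-3B.

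The rank order of the 26 genes gave a view without any scaling. Spearman's rho over genes was 0.958 to 0.986 between leaves, 0.947 to 0.990 between stems and 0.653 to 0.755 between a leaf and a stem, as a description of 26 selected genes. AB042066 ranked first in both tissues, and GS2 and the ATP synthase subunit ranked 4 and 5 in both, despite their large differences in level. GAPC8 ranked 6 in every leaf and 2 in every stem. The genes at least 5 places higher in the order of leaves were SUT1D (rank 7 in leaves and 19 in stems), NiR (8 and 17), gid1 (17 and 23), starch synthase isoform IV (16 and 21) and hexokinase (20 and 25). NADH-GOGAT-3B moved the most places the other way (rank 22 in leaves and 7 in stems), followed by GDH (21 and 8), agp2 (24 and 12) and Rht-D1 (19 and 14). The ranks of single leaves and single stems did not overlap for 16 of 26 genes (61.5%), which include these 9. Without rbcL, last in every sample, and the rbcS sequences, at ranks 1 to 3 in leaves and at 1, 3 and 6 in stems, rho between the tissue means was 0.470, against 0.672 with them.

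**Figure D5:**
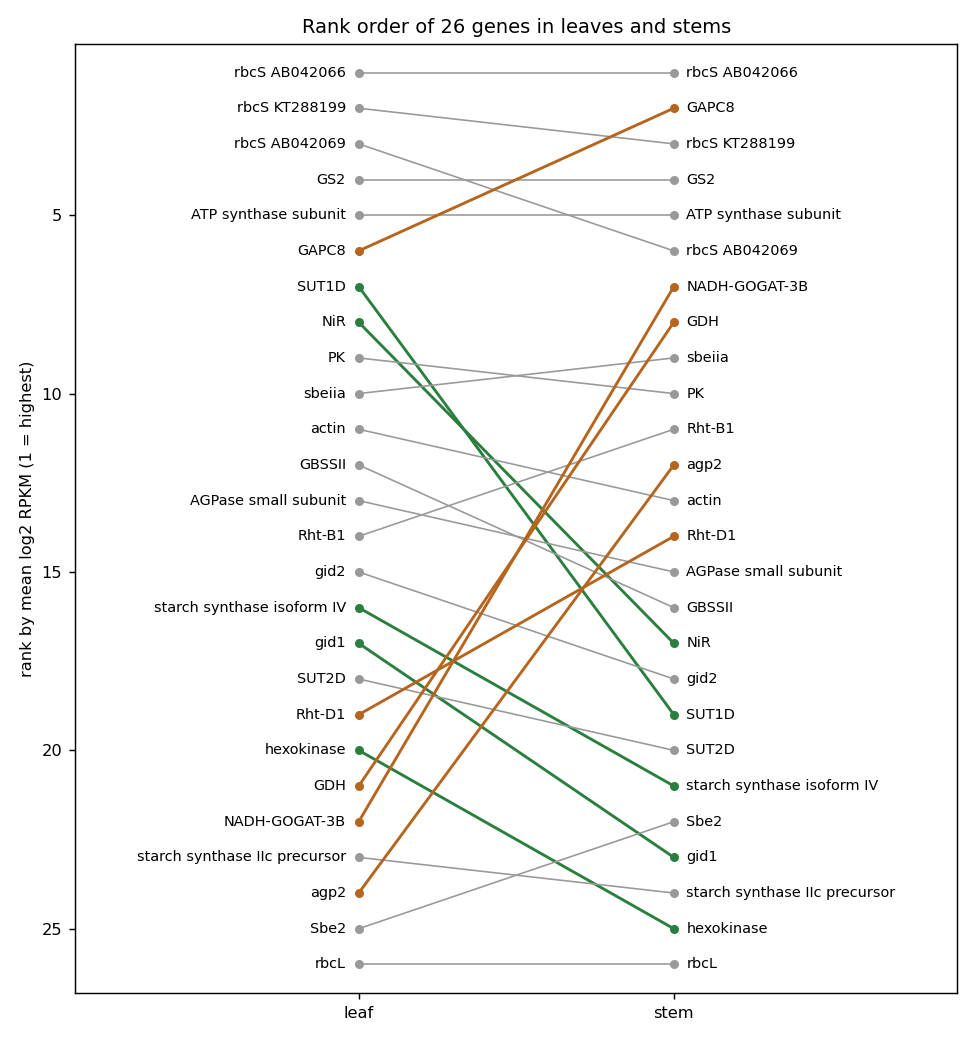
Rank of 26 genes by mean log2 RPKM (1 is the highest) in leaves on the left and stems on the right. Green lines mark genes at least 5 places higher in leaves and brown lines those at least 4 places lower in leaves. SUT1D stands at rank 7 in leaves and 19 in stems, and NADH-GOGAT-3B stands at 22 in leaves and 7 in stems.

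The tissues also differed in how the summed RPKM of the 26 genes was divided. The 3 rbcS sequences held 88.6, 86.1 and 85.3% of it in leaves, against 54.3, 60.5 and 53.4% in stems. Leaves were all higher and close together, and leaf 10 did not stand apart in this sum. It did for actin, which held 0.035, 0.069 and 0.086% in leaves 10, 13 and 16. GAPC8 held 1.12, 1.64 and 2.27% in leaves, against 28.8, 21.6 and 31.6% in stems, second only to AB042066 in stems. A share depends on the other genes of the sum, here mostly rbcS, and the actin-scaled difference of GAPC8 was only -0.72. From the most to the least abundant gene other than rbcL, the range was 4629, 3216 and 3340-fold in leaves, against 498, 815 and 650-fold in stems. In tissue samples such as these, fewer cells of a type and less RNA per cell cannot be told apart, so each difference is one between tissues and not between cells.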

How the data were processed

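The submitters sequenced mRNA libraries of both tissues. In ArrayStar (version not given in the sources used here) the authors assigned reads to listed wheat gene sequences where a stretch of 50 bp or more matched at 100%, and they deposited RPKM scaled to an equal actin value in each sample. A gene copy that differs from the listed sequence is thereby missed, and related copies may share reads. The sheet has 12 columns of values, 1 per tissue sample. Each tissue sample is listed as 2 entries and counts as 1 replicate, which is described in one place as several plants combined and in another as one plant. The authors' averages, errors and p-values, which compare the lines, were not used. Of 27 lines 1 is a repeat.

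Tissues were compared by limma 3.58.1 (R 4.3.3), applied to log2(RPKM + 1) of the 6 *Rht-B1a* samples, two-sided, with Benjamini-Hochberg adjustment over 25 genes, a threshold of 0.05 and no filter on low values. A fold change on this scale understates changes of low genes. Within-sample log2 ratios of 325 pairs were tested in the same way without a pseudocount and adjusted over the pairs. Ranks and Spearman's rho were taken as a description. The fits were tested on simulated data with noise drawn separately for each gene. An error shared by all genes of a sample, such as that of the scaling, was not simulated. Alternatives were other pseudocounts, scalings and filters, a prior with a mean trend, all 12 samples in 1 fit, and each sample left out. The exact test under other scalings was added after the data were seen. Every gene was named within its list, and full values were given for up to 10 genes with the largest difference and for those a list turns on. The samples, genes and lists were chosen with earlier results of these data known. None of the 26 accessions was found in the RefSeq gene table used here, so positions and sequences are not given. Figures were drawn with matplotlib 3.10.9.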

Additional observations from a re-analysis of the deposited data

How the results depend on the processing

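No paired analysis was possible because the leaf and stem sample numbers share none and the study does not name which leaf belongs to which stem. The count of 18 genes was 16 to 18 with 1 sample left out, 17 with a pseudocount of 100 or a trend in the prior, 18 with no pseudocount or with either other scaling, 19 with all 12 samples in 1 fit, and 15 of 21 with a mean of at least 500 RPKM. Of the 18, 17 remained with the geometric mean of 22 genes and 16 with the median gene. Pairs past the threshold numbered 252 to 264 with 1 sample left out. Genes without overlap numbered 18 with the geometric mean and 21 with the median gene. Spearman's rho of the tissue means was 0.470 without rbcL and the rbcS sequences.

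None of the genes that had passed changed direction under the alternatives run, but 7 others did with other scalings. With the geometric mean and the median gene, the difference was -0.43 and -0.58 for the ADP-glucose pyrophosphorylase small subunit, -0.32 and -0.46 for GBSSII, -0.17 and -0.31 for Sbe2, -0.42 and -0.56 for sbeiia, -0.24 and -0.39 for SUT2D, -0.49 and -0.63 for gid2, and -0.017 and -0.16 for PK. The construction sets this: both subtract a gene-wide shift. With 1 sample left out, the small subunit ran from -0.21 to 0.74, sbeiia from -0.11 to 0.52 and gid2 from -0.12 to 0.28. The log2 ratios of rbcS AB042066 to GS2 (-0.098 to 0.12), rbcS AB042066 to SUT1D (-0.38 to 0.081) and GAPC8 to Rht-B1 (-0.25 to 0.23) also crossed 0. Depth is unknown and sets no limit that could be computed.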

Other observations

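A few pairs of genes kept nearly the same ratio over all 6 samples, although most did not. Over 325 pairs the highest ratio was a median of 8.04 times the lowest, 141 pairs exceeded 10 times and 8 pairs stayed under 1.5 times. The steadiest was GBSSII to sbeiia, 2 genes of starch synthesis, whose ratio ran from 0.508 to 0.624 (1.23 times). It was followed by the DELLA homeologs Rht-B1 and Rht-D1 (1.31 to 1.64, 1.24 times), which may share reads, and by rbcS KT288199 and the ATP synthase subunit (5.55 to 7.00, 1.26 times). Hexokinase to gid1 ran from 0.542 to 0.728 (1.34 times) between genes of different lists. These pairs were picked after their values were seen and are given as a description with no test.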
